A study of Rattus norvegicus with 11 samples.

Results

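Lyz2, Cd68, the chemokines Ccl2, Ccl3, Ccl4, Ccl5 and Cx3cl1, and the chemokine receptors Cx3cr1 and Cxcr4 were followed in the ventricle of old and young rats. They mark macrophages or carry the signals that bring leukocytes into tissue. Every probe set whose gene symbol in the platform annotation was one of these 9 names was taken, dim ones included. This gave 13 of the 8799 probe sets on the array and 8 of the 4736 genes named there by a single symbol; Cd68, a lysosomal glycoprotein of macrophages, had no probe set under its symbol and was not analysed here. Each probe set gives 1 reading from several short probes against the same transcript. Total RNA from the ventricle of Fischer-344 rats, which are inbred and often used to study ageing, was measured on 11 Affymetrix rat arrays. The old group held 6 arrays from rats of 22 months and the young group 5 arrays from rats of 4 months. No treatment, sex or genotype besides the strain is named in the labels, and they do not state that the arrays stand for separate animals. The p-values therefore rest on the spread between samples, part or all of which may be technical.

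Chemokines are small secreted proteins that steer leukocytes along a gradient by binding G protein-coupled receptors on their surface. Ccl2 draws monocytes that carry Ccr2 out of the blood, Ccl3, Ccl4 and Ccl5 attract monocytes and T cells, and Cx3cl1 (fractalkine) is made as a membrane-bound protein of endothelium and neurons whose receptor, Cx3cr1, sits on monocytes and resident macrophages. Cxcr4 binds Cxcl12, holds stem cells and leukocytes in their niches and is also present on endothelial cells, and Lyz2 encodes the lysozyme of macrophages and neutrophils. The heart holds a resident macrophage population that clears debris and is joined by monocyte-derived cells after injury.

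The deposited intensities had been scaled so that each array's mean, computed without the top and bottom 2% of its values, was 500.47 to 500.96. Values below 47.4, the 20th percentile of all values, were raised to that floor before the log2 transformation, so differences of dim genes are understated. The spike-in controls BioB, BioC, BioDn and CreX, RNAs foreign to the rat that are added to every sample, split the arrays into 2 classes of unequal brightness. Old replicates 3 to 6 and young replicate 4 were bright, with a mean log2 signal of 11.97 to 15.24, and the other 6 arrays were dim, at 9.55 to 10.20. The 3′ over 5′ ratio of the GAPDH control transcript, which rises when RNA is degraded, was 3.39 and 4.09 on the log2 scale in old replicates 3 and 4 and between 0.07 and 0.77 on the other 9 arrays. Brightness and age overlap, since the bright class holds 1 young array. The only old arrays of the dim class are old replicates 1 and 2. The part of either measure in the differences described next was tested only as far as the fits and correlations given below show.

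Lyz2 and Ccl4 read higher in old ventricle, by 2.82-fold and 3.19-fold, and Cxcr4 and Cx3cl1 read lower, by 2.62-fold and 1.94-fold in the probe set with the highest mean of each gene. None of these differences passed the limma test after adjustment. Of the 13 probe sets, 10 were bright enough to be tested, their mean log2 value over all arrays being at or above the 40th percentile, 7.0; 6 of the 10 were higher and 4 lower in old ventricle, against 49.4% higher and 50.6% lower among all 5244 tested probe sets. At a limma adjusted p under 0.05, 0 of the 10 were called, against a background of 0% of the 5244, whose smallest adjusted p was 0.355. Before adjustment, 6 of the 10 passed at 0.05, from 4 genes, against 7.51% of all tested probe sets. The members were chosen with earlier results of these data known, so this share describes them and is no test against the background. The probe sets that passed were 2 higher ones, Lyz2 and Ccl4, against a background of 3.39%, and 4 lower ones, a pair each for Cx3cl1 and Cxcr4, against 4.12%; those pairs read the same transcript and are not independent. The old and young values overlapped in all 13 probe sets, whereas 0.973% of the tested probe sets had groups that did not overlap. In bulk tissue RNA, more or fewer cells of a type and more or less RNA per cell cannot be told apart.

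**Figure D1:**
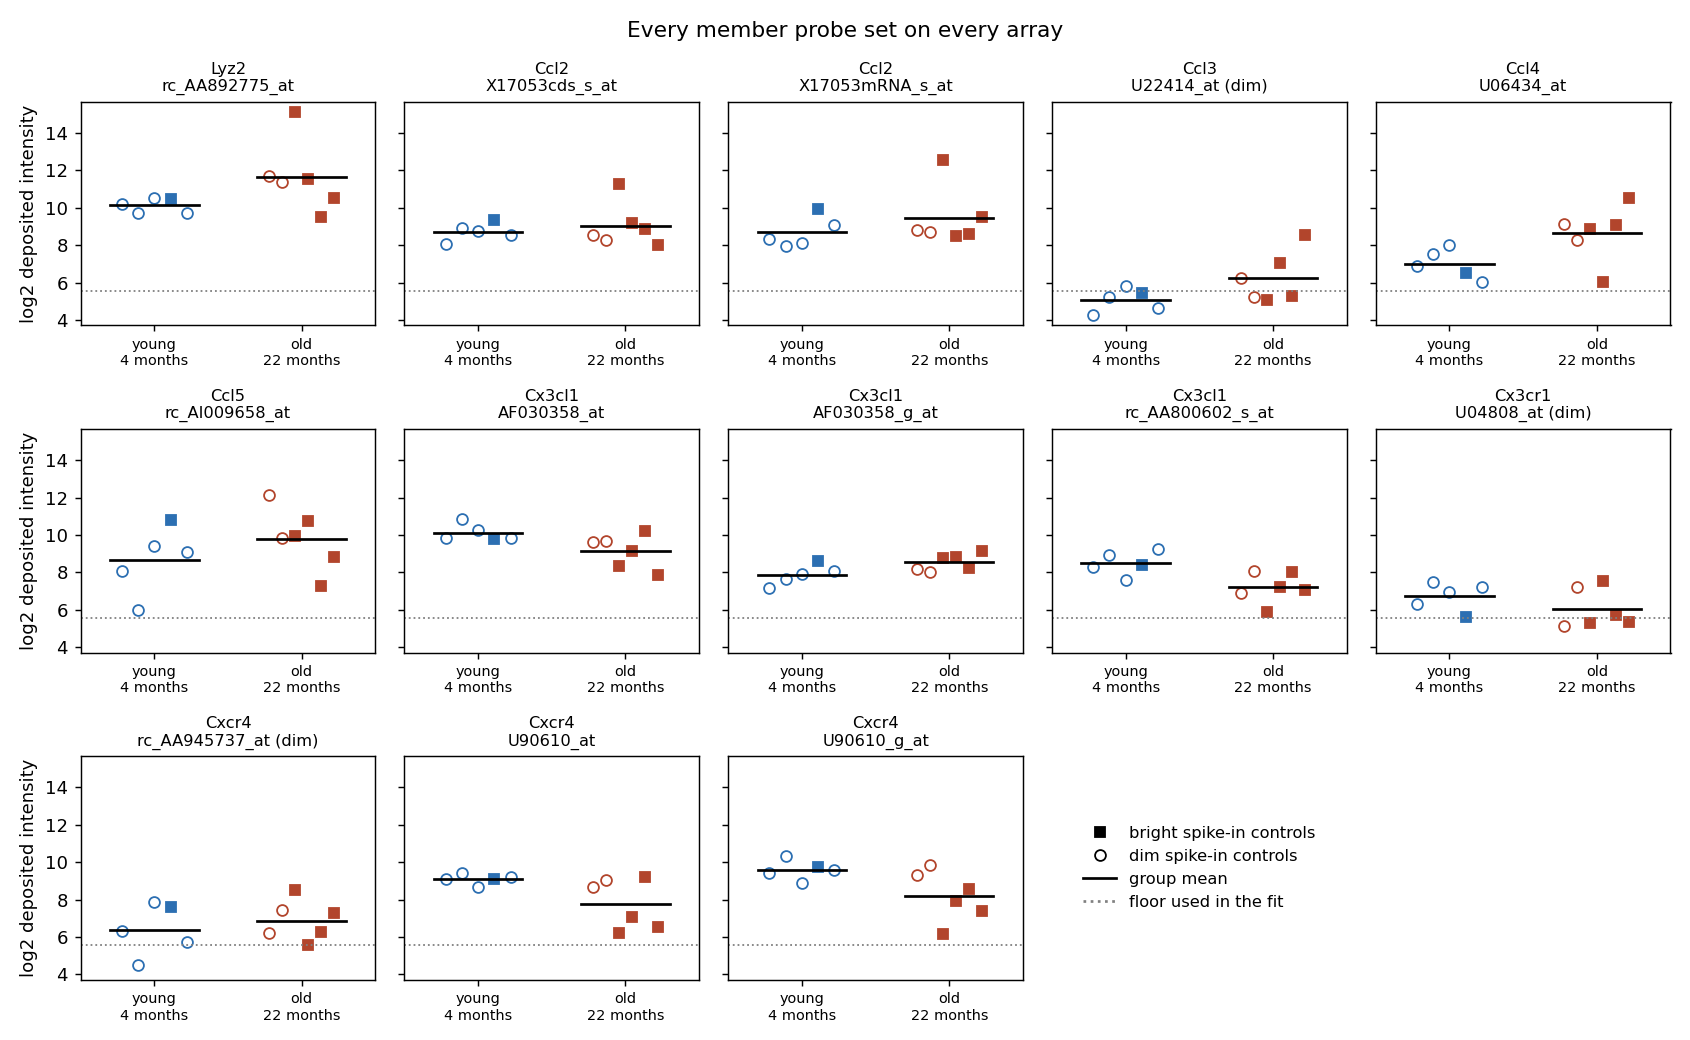
Log2 intensity (vertical axis, arbitrary units) of each of the 13 probe sets on each of the 11 arrays, young at 4 months and old at 22 months; filled squares are arrays with bright spike-ins, open circles arrays with dim ones, the black line is the group mean before flooring and the dotted line the floor at log2 5.57. The groups overlap in every panel, and 1 old array stands far above the others for Lyz2 and for both probe sets of Ccl2.

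Lyz2, the only macrophage marker of the set that was measured, had 1 probe set, rc_AA892775_at. In old ventricle its intensity ran from 739 in replicate 5 over a median of 2818 to 35868 in replicate 3. In young ventricle it was 1189, 860.1, 1455, 1421 and 849. Thus 5 of 6 old arrays lay above every young array and the other lay below all of them, and the highest old array exceeded the next, old replicate 1 at 3295, by an order of magnitude. For old replicate 6 the margin was slight, 1461 against 1455 in young replicate 3. The log2 means were 11.63 ± 1.90 (SD, n = 6) for old and 10.13 ± 0.38 (SD, n = 5) for young ventricle, a difference of 1.49 ± 0.65 (SE; limma unadjusted p = 0.0317, adjusted p = 0.597). The young arrays thus agreed closely with each other and the old arrays did not. Without old replicate 3 the difference was 0.79 ± 0.41 (limma adjusted p = 0.777), and without both arrays of high GAPDH ratio it was 0.64 ± 0.42 (adjusted p = 0.896). Within the 6 arrays with dim spike-ins, where old replicates 1 and 2 are the only old ones, it was 1.47 ± 0.35. Within the 5 bright ones, where young replicate 4 is the only young one, it was 1.21 ± 1.21.

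Ccl2, the monocyte chemoattractant, was read by a pair of probe sets that share a source transcript. For X17053mRNA_s_at, which had the higher mean and stands for the gene, the old arrays ran from 363 over a median of 430.6 to 5982, and the young arrays read 327, 252, 277, 971 and 550.3. For X17053cds_s_at the old arrays ran from 261 over a median of 419 to 2435, and the young arrays read 268, 483, 441, 641 and 372. In both probe sets the highest value belonged to old replicate 3, and the other 5 old arrays fell within or beside the young range. The differences were 0.74 ± 0.63 (SE; limma adjusted p = 0.804) and 0.30 ± 0.52 (adjusted p = 0.905). Without old replicate 3 they were 0.12 ± 0.47 and -0.14 ± 0.43, so that 1 array set the direction of the latter. The probe sets correlated at r = 0.80 over the 11 arrays and at 0.04 without old replicate 3, which describes how far they agree on the remaining arrays.

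Ccl3 and Ccl4, the macrophage inflammatory proteins 1-alpha and 1-beta, are close relatives and were each read by 1 probe set. The Ccl3 probe set, U22414_at, was dim: 3 of 6 old and 4 of 5 young arrays lay below the floor. Its old intensities ran from 33.5 over a median of 57.2 to 374 in replicate 6, and its young intensities were 19, 37.3, 57.1, 43.3 and 25. Readings of 3 old arrays, replicates 1, 4 and 6, lay above all young ones. The difference was 0.80 ± 0.48 on the floored log2 scale (SE; limma adjusted p = 0.752 over the 8740 probe sets tested without the filter, of which 0% passed adjustment, 6.69% had an unadjusted p under 0.05 and 0.744% had groups that did not overlap). Without old replicate 6 it was 0.38 ± 0.27, within the dim arrays 0.27 ± 0.20 and with spike-in brightness as a covariate 0.28 ± 0.52. Ccl4 (U06434_at) passed the filter and ran from 64.6 in old replicate 4 over a median of 509 to 1488 in old replicate 6. The young arrays read 119, 188, 255, 90.3 and 64.6. So 5 of 6 old arrays exceeded every young array, and the remaining old array equalled the lowest young one. The log2 means were 8.66 ± 1.49 (SD, n = 6) and 6.99 ± 0.80 (SD, n = 5), a difference of 1.67 ± 0.67 (SE; limma unadjusted p = 0.022, adjusted p = 0.56). Dim arrays alone gave 1.61 ± 0.66 and bright arrays alone 2.14 ± 1.51, and all arrays but those of high GAPDH ratio gave 2.28 ± 0.60. Old replicate 6, the array with the brightest spike-ins, gave the highest value for both genes. Ccl3 and Ccl4 correlated at r = 0.43 over all arrays and at -0.24 without it.

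Ccl5 (RANTES), a chemokine of activated T cells and macrophages, had 1 probe set, rc_AI009658_at. Its old intensities ran from 154 in replicate 5 over a median of 949 to 4596 in replicate 1, and its young intensities were 265, 63.8, 687, 1819 and 547. Both groups spread widely and overlapped over most of their range. The log2 means were 9.80 ± 1.67 (SD, n = 6) and 8.68 ± 1.80 (SD, n = 5), and the difference of 1.13 ± 0.78 was smaller than either SD (limma adjusted p = 0.755). It was 2.85 ± 0.91 within the 6 dim arrays and -1.62 ± 1.06 within the 5 bright ones, where 1 young array carries the contrast. Without old replicate 1 it was 0.65 ± 0.75, without young replicate 2, the lowest array, 0.45 ± 0.73, and without young replicate 4, 1.66 ± 0.78.

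Cx3cl1, the membrane-bound ligand of endothelium, was read by 3 probe sets that did not move the same way. AF030358_at, with the highest mean, ran in old ventricle from 233 in replicate 6 over a median of 686 to 1189 in replicate 5, and read 923, 1869, 1219, 870.2 and 919.5 in young ventricle. Of the 6 old arrays, 5 (all but replicate 5) lay below every young array. The log2 means were 9.16 ± 0.89 (SD, n = 6) and 10.12 ± 0.46 (SD, n = 5), a difference of -0.96 ± 0.43 (SE; limma unadjusted p = 0.0385, adjusted p = 0.639). The probe set rc_AA800602_s_at differed in the same direction. Its old intensities ran from 58.6 in replicate 3 over a median of 142 to 267, and its young intensities were 313, 496, 191, 341 and 598, so that 4 of 6 old arrays lay below all young ones. Its difference was -1.30 ± 0.54 (limma unadjusted p = 0.0272, adjusted p = 0.572). AF030358_g_at, which carries the same source sequence as the first, read the other way. Its old intensities ran from 264 over a median of 369 to 574 and its young intensities were 141, 201, 244, 396 and 266, a difference of 0.65 ± 0.46 (adjusted p = 0.76), with 3 of 6 old arrays above all young ones. Over the 11 arrays the AF030358_at and AF030358_g_at values ran against each other at r = -0.76, and AF030358_at ran with rc_AA800602_s_at at 0.71. The mean of the 3 probe sets differed by -0.53 ± 0.31. Once spike-in brightness was entered as a covariate the AF030358_at difference was -0.46 ± 0.46, and with brightness class as a block it was -0.66 ± 0.47.

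Cx3cr1, the fractalkine receptor of monocytes and macrophages, was dim on this array. Its probe set U04808_at ran in old ventricle from 35.5 over a median of 47.2 to 189, with 3 of 6 arrays below the floor. In young ventricle it read 79.3, 182, 123, 49.6 and 148, all above the floor. The difference was -0.52 ± 0.51 (SE; limma adjusted p = 0.812 without the filter), which lies within the spread of both groups. Cx3cr1 and the AF030358_at values of its ligand correlated at r = 0.47 over the arrays.

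Cxcr4, the receptor of Cxcl12, was read by 3 probe sets, and the 2 bright ones gave nearly the same picture. U90610_g_at ran in old ventricle from 70.5 in replicate 3 over a median of 314 to 917 in replicate 2, and read 686, 1289, 469, 858 and 763 in young ventricle. U90610_at ran from 73.2 over a median of 268 to 594 in old ventricle, and read 542, 690, 402, 546 and 580.3 in young ventricle. In the first, 4 of 6 old arrays lay below all young ones, and in the second 3 of 6 did, and old replicates 3, 4 and 6 were low in both. The log2 means of U90610_g_at were 8.20 ± 1.34 (SD, n = 6) and 9.59 ± 0.53 (SD, n = 5), a difference of -1.39 ± 0.57 (SE; limma unadjusted p = 0.0236, adjusted p = 0.567). U90610_at differed by -1.30 ± 0.58 (limma unadjusted p = 0.0364, adjusted p = 0.632), and the pair correlated at r = 0.92. The low old arrays were all among those with bright spike-ins. Within the 6 dim arrays the differences were 0.017 ± 0.45 for U90610_g_at and -0.23 ± 0.41 for U90610_at, within the 5 bright ones -2.23 ± 1.42 and -1.85 ± 1.52, and with brightness as a covariate -0.59 ± 0.59 and -0.57 ± 0.62. The only old arrays among the dim ones, replicates 1 and 2, had the highest old U90610_g_at values, 628.5 and 917.3. The only young array among the bright ones was replicate 4. The dim probe set rc_AA945737_at did not follow them: it ran from 46.5 over a median of 116 to 361 in old ventricle, read 79.7, 22.4, 230.5, 196 and 52.4 in young ventricle and differed by 0.27 ± 0.63 (limma adjusted p = 0.931 without the filter). Its highest value was in old replicate 3, the array on which the bright Cxcr4 probe sets read lowest.

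**Figure D2:**
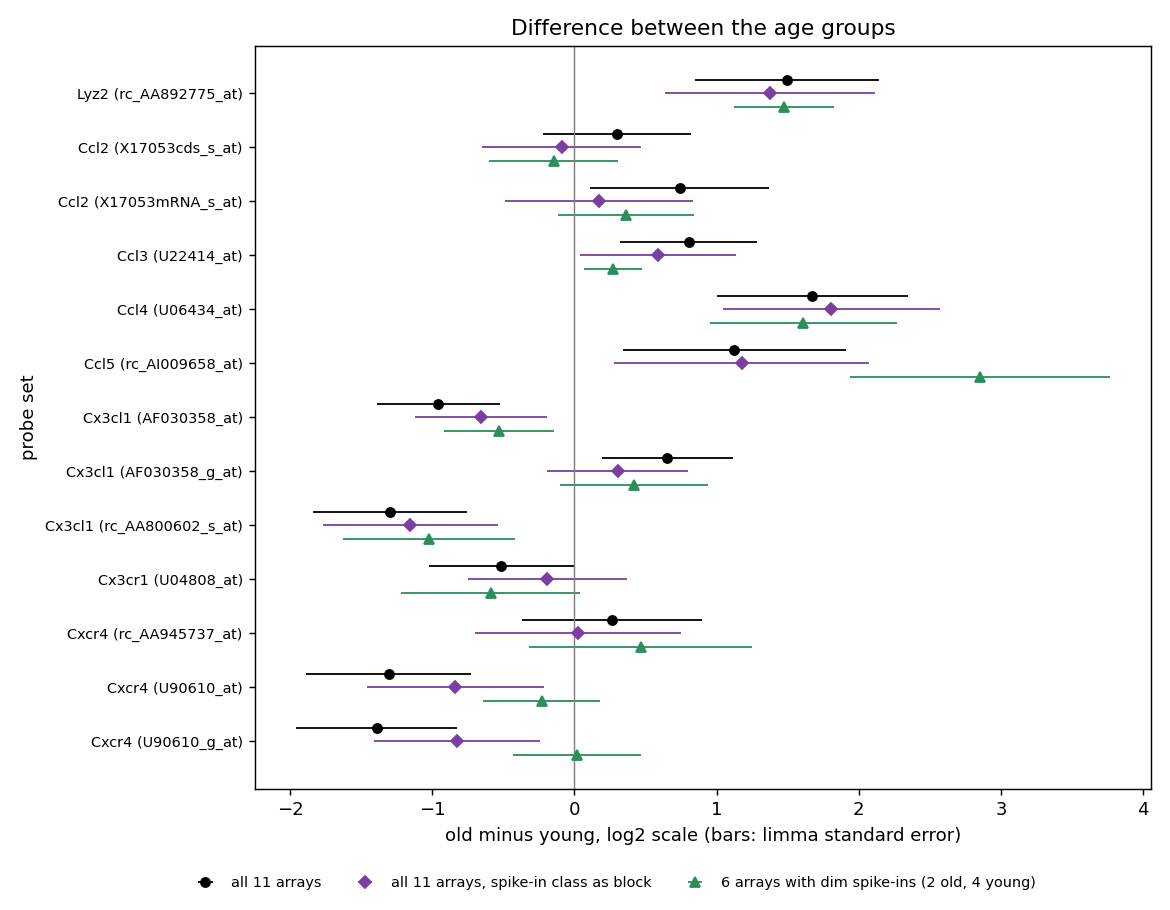
Old minus young difference on the log2 scale (horizontal axis) for each of the 13 probe sets with its limma standard error. Fits are over all arrays, over all arrays with spike-in class as a block, and within the arrays with dim spike-ins. The only old arrays with dim spike-ins are replicates 1 and 2. Lyz2 and Ccl4 keep a positive difference in each fit shown, while the bright Cxcr4 probe sets lie at 0.017 and -0.23 within the dim arrays against -1.39 and -1.30 over all arrays.

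Which genes varied together was read from the 6 genes with a tested probe set, each by its brightest one, in 15 pairs over the 11 arrays. By Pearson r the highest relation, just above that of Lyz2 with Ccl2, joined the ligand Cx3cl1 and the receptor Cxcr4, which bind different partners and were low and high on the same arrays. Their Pearson r was 0.81 (permutation p = 0.00338, Benjamini-Hochberg adjusted p = 0.0507 over the 15 pairs) and their Spearman rho 0.58 (permutation p = 0.0662, adjusted p = 0.226). Without old replicates 3 and 6, the arrays farthest from the median of Cx3cl1, r was 0.52. It was 0.75 within the 6 old arrays, 0.71 with the group means removed, 0.63 with the brightness class removed as well and 0.46 within the dim arrays. Of all pairs of tested probe sets, 0.547% had an r at least as high. Of the other Cx3cl1 probe sets, rc_AA800602_s_at ran the same way, at 0.84 with U90610_g_at and 0.82 with U90610_at of Cxcr4, and AF030358_g_at ran the opposite way, at -0.68 and -0.76. The dim Cxcr4 probe set rc_AA945737_at was at -0.44 to AF030358_at and -0.53 to rc_AA800602_s_at, so the sign of the relation turned with the probe set.

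Lyz2 and Ccl2 ran together through 1 array, old replicate 3, where both were highest. Their Pearson r was 0.80 (permutation p = 0.0382, adjusted p = 0.115) and their Spearman rho 0.36 (permutation p = 0.27, adjusted p = 0.45), and without old replicates 1 and 3 r was 0.07. The 3 negative pairs with r at or below -0.6 were Lyz2 with Cxcr4 at -0.70 (permutation p = 0.0256, adjusted p = 0.115; rho -0.44, permutation p = 0.182), Ccl2 with Cxcr4 at -0.70 (permutation p = 0.0276, adjusted p = 0.115; rho -0.34, permutation p = 0.313) and Ccl2 with Cx3cl1 at -0.66 (permutation p = 0.0371, adjusted p = 0.115; rho -0.72, permutation p = 0.0169, adjusted p = 0.0845). Without the 2 farthest arrays, r was -0.28, -0.50 and -0.81. The negative r of Ccl2 with Cx3cl1 thus held on the remaining arrays for X17053mRNA_s_at and AF030358_at. That of Lyz2 with Cxcr4 U90610_g_at was weaker there. The other bright Cxcr4 probe set, U90610_at, was at r -0.70 and rho -0.87 to Lyz2 over all arrays. Without old replicate 3 its r was -0.44. The dim rc_AA945737_at ran the opposite way, at r 0.57 to Lyz2. Other probe sets of Ccl2 and Cx3cl1 did not share 1 sign. To AF030358_g_at, X17053mRNA_s_at was at 0.56 and X17053cds_s_at at 0.38. X17053cds_s_at was at -0.25 to AF030358_at over all arrays and at 0.41 without old replicate 3. To rc_AA800602_s_at of Cx3cl1, X17053mRNA_s_at was at -0.60 and X17053cds_s_at at -0.53 over all arrays. Without old replicate 3 these were -0.05 and 0.13. Ranks brought out 2 pairs that r did not: Lyz2 with Ccl5, rho 0.73 (permutation p = 0.0146, adjusted p = 0.0845) against r 0.49 (permutation p = 0.136, adjusted p = 0.291), and Lyz2 with Cx3cl1, rho -0.75 (permutation p = 0.011, adjusted p = 0.0845) against r -0.59 (permutation p = 0.0734, adjusted p = 0.183). Without old replicates 1 and 3 their r was 0.74 and -0.44. Of the other Cx3cl1 probe sets, Lyz2 was at r -0.82 to rc_AA800602_s_at and at 0.42 to AF030358_g_at, so this sign too turned with the probe set. For Ccl4, r was 0.23 to Lyz2, 0.23 to Ccl2, -0.05 to Ccl5, -0.44 to Cx3cl1 and -0.44 to Cxcr4, none with a permutation p under 0.05, and within the 6 dim arrays it was 0.86 to Lyz2 and 0.56 to Ccl5.

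Over the 15 pairs, 5 had a permutation p under 0.05 for r, and 0 passed adjustment for r or for ranks. An r of 0.6 or more was found in 2 pairs, 13.3%, against 5.19% of all 13747146 pairs of tested probe sets, and an r of -0.6 or less in 3 pairs against 4.29%. These values share arrays and scaling, so pairs are not independent of each other. The genes were chosen with earlier results of these data known, so the shares are a description and no test against the background. Old replicate 3 gave the highest value of 4 of the 13 probe sets and the lowest of 3, while over the 5244 tested probe sets it was highest in 10.9% and lowest in 14.8%.

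**Figure D3:**
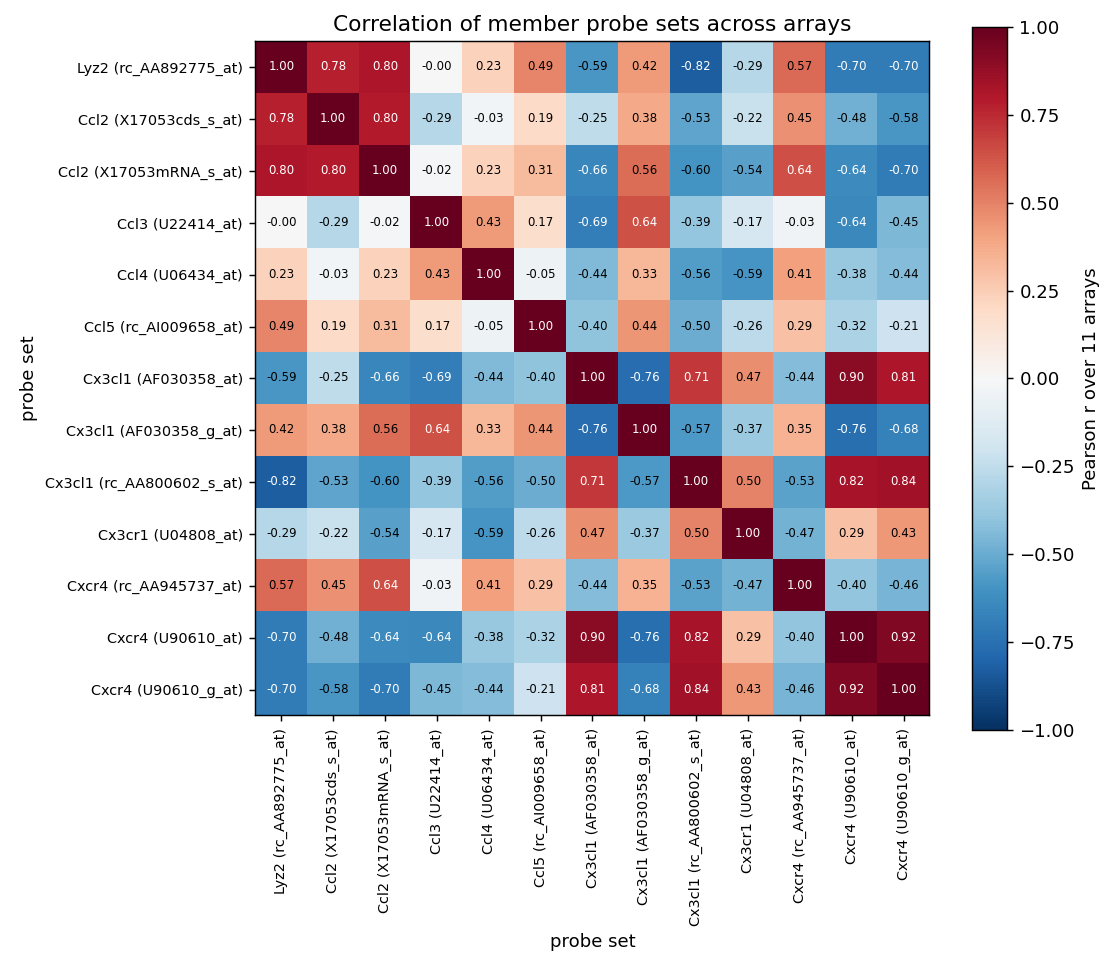
Pearson r across the 11 arrays (colour scale from -1 to 1) between every pair of the 13 probe sets, both axes listing the same probe sets. The bright Cxcr4 probe sets and 2 Cx3cl1 probe sets form a positive block, with r from 0.81 to 0.92 between AF030358_at and the Cxcr4 pair and within that pair, and AF030358_g_at of Cx3cl1 runs against it.

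**Figure D4:**
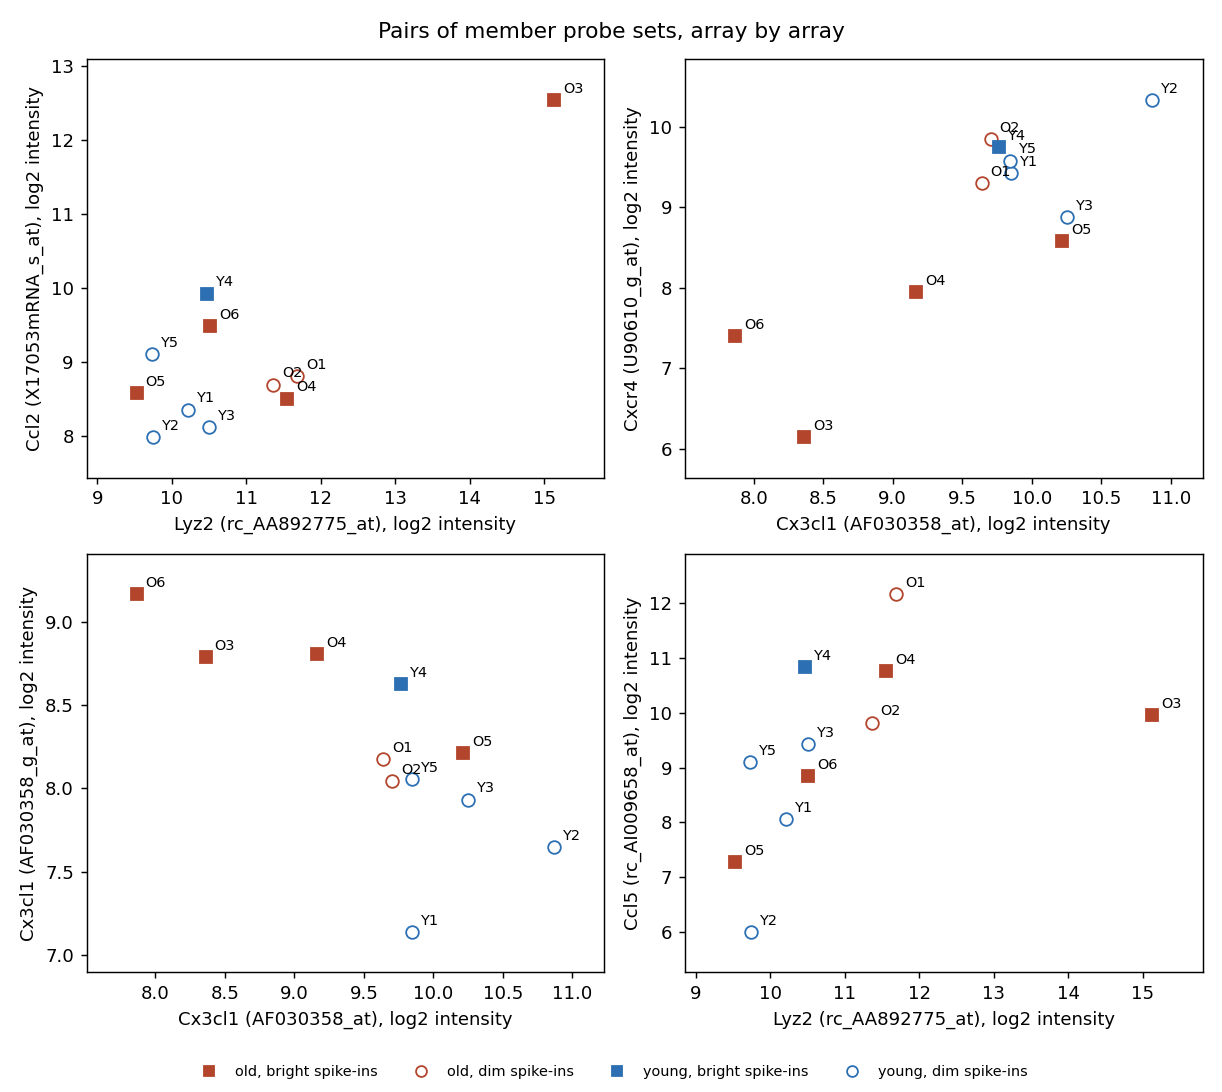
Log2 intensity of pairs of probe sets plotted against each other, 1 point per array, labelled O1 to O6 for old and Y1 to Y5 for young replicates; filled squares are arrays with bright spike-ins. Old replicate 3 stands alone at the top right for Lyz2 and Ccl2, where r falls from 0.80 to 0.07 without it, while Cx3cl1 and Cxcr4 spread along a line.

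The sequence ahead of the transcription start is shown for Lyz2, Cx3cl1 and Cxcr4, the genes with a difference at an unadjusted p under 0.05 that had an entry among the RefSeq promoters used; Ccl2, Ccl3, Ccl4 and Ccl5 had none. The 250 bases before the start are given 5′ to 3′ from the GRCr8 assembly, each on the minus strand, at chr7:54798012-54798261 for Lyz2, chr19:10242821-10243070 for Cx3cl1 and chr13:42634289-42634538 for Cxcr4. Capitals mark matches, on either strand, to GAGGAA, the core bound by the myeloid factor PU.1, or to TATAAA, the TATA box.
Lyz2: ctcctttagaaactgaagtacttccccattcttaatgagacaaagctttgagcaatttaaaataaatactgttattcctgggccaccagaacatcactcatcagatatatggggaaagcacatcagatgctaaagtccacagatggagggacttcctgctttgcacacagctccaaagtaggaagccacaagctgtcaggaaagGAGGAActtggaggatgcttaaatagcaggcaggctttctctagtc
Cx3cl1: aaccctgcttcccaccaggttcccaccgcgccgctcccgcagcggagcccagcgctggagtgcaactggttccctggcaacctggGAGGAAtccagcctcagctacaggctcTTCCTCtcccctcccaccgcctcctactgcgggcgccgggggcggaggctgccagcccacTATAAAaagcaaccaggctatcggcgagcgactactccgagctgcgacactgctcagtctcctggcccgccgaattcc
Cxcr4: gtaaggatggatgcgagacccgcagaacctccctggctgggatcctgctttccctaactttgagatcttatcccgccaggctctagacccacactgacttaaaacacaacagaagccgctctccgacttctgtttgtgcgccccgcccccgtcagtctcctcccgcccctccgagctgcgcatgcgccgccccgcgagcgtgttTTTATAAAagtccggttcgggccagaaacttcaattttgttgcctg
The Lyz2 window held GAGGAA 46 to 41 bases before the start. The Cx3cl1 window held GAGGAA at 165 to 160 on its own strand and at 138 to 133 on the opposite strand, and TATAAA at 78 to 73. In the Cxcr4 window TATAAA occurred on both strands in overlapping positions, 46 to 41 and 44 to 39. Among 33469 rat promoter windows of this length, 23.3% held GAGGAA and 12.9% held TATAAA. The AP-1 motif TGANTCA, held by 6.34% of windows, and the NF-kB consensus, held by 3.54%, were not found in these 3 windows. Such matches are letters in a window and were not set against binding data. Cx3cl1 and Cxcr4, the pair with the highest r, each had a TATA match, and a link of these matches to their correlation was not tested.

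Over all arrays, AF030358_g_at of Cx3cl1 correlated with spike-in brightness at r 0.82 (permutation p = 0.00166, adjusted p = 0.0432) and rho 0.75. Adjustment was over 26 relations of the 13 probe sets with brightness or GAPDH ratio, and no other relation passed. Within the 6 dim arrays its r with brightness was -0.06. A pooled r mixes the step between the spike-in classes with the spread inside them, so the classes were also set side by side for each probe set. AF030358_g_at of Cx3cl1 divided the classes without overlap: it read 141 to 289.5 on the 6 dim arrays, with a median of 254, and 296 to 574 on the 5 bright ones, with a median of 443. AF030358_at of the same gene had the opposite order, with medians of 921 and 574 and 3 of 5 bright arrays below all dim ones. Cxcr4 behaved like the latter, with medians of 725 on the dim and 247 on the bright arrays for U90610_g_at, 4 of 5 bright arrays below all dim ones, and medians of 538 and 133 for U90610_at, 3 of 5 below. In these 3 probe sets every bright array below all dim ones was old. Young replicate 4, the only bright young array, was not low there, at 870.2 in AF030358_at, 857.8 in U90610_g_at and 546 in U90610_at. In AF030358_g_at it read 395.6, above all dim arrays. For Lyz2, Ccl4 and Ccl5 at most 1 of 5 bright arrays lay above all dim ones, and the classes overlapped over most of their range. Within the 6 dim arrays, the correlation of brightness with each of the 13 probe sets gave 0 calls after adjustment and 2 at an unadjusted p under 0.05, with a smallest exact permutation p of 0.00833 (adjusted p = 0.108), for rc_AA800602_s_at of Cx3cl1.

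For each of the 6 tested genes the 3 genes with the most similar pattern were taken by Pearson r over the 11 arrays among the 3206 genes tested. Lyz2 ran most closely with Mgst1, a microsomal glutathione transferase, at 0.93, with the myelin gene Pmp22 at 0.88 and the Wnt receptor gene Ryk at 0.87. Without the 2 arrays farthest from the Lyz2 median, these were 0.79, 0.76 and 0.73. Ccl2 ran with the stress-induced transcription factor Atf3 at 0.92, with the EGF receptor inhibitor Errfi1 at 0.87 and with Cd24 at 0.86, and without the 2 farthest arrays these were 0.48, -0.30 and 0.53. Atf3, like Ccl2, was highest in old replicate 3, at 3097 against 537 on the next array. Ccl4 ran with Serpinb9, an inhibitor of granzyme B, at 0.92, with the guanylate cyclase gene Gucy2d at 0.86 and with beta-arrestin 2, Arrb2, at 0.86. Ccl5 ran with Phax at 0.88, Ptpmt1 at 0.87 and Ctss, the lysosomal cathepsin S of antigen-presenting cells, at 0.87. Of the Ccl4 and Ccl5 partners, the r without the 2 farthest arrays lay between 0.72 for Ptpmt1 and 0.87 for Arrb2. Cx3cl1 ran with Fkbp2 at 0.94, Med25 at 0.93 and Gstm7 at 0.92. Cxcr4 ran with the arginine deiminase Padi2 at 0.96, the RNA-binding Khdrbs1 at 0.96 and the receptor kinase Grk2 at 0.93. These genes are the top of a ranking, so their r is a description, with no test.

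Other genes of leukocytes and their recruitment were counted from lists, which gives the surroundings of the chemokines on the same arrays. Of 36 other macrophage and myeloid genes, 22 were on the array and 17 were tested; 14 were higher and 3 lower in old ventricle with a median difference of 0.16 on the log2 scale, 0 were called by limma after adjustment, and 0 had an unadjusted p under 0.05. Over all 3206 genes, 1593 were higher and 1613 lower, the median was -0.01, 0 were called, and 102 higher and 118 lower had an unadjusted p under 0.05. Those with the smallest p were Ctss at 0.80 ± 0.40, the tetraspanin Cd53 at 1.12 ± 0.57, the macrophage lectin Clec10a at 0.94 ± 0.65 and the pan-leukocyte phosphatase Ptprc at 0.82 ± 0.58 (limma SE). The summed intensity of the 22 genes ran from 8241 to 17939 in old and from 8313 to 14412 in young ventricle, so the groups overlapped.

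Of the other chemokines, 11 of 28 were on the array and 7 were tested, 2 higher and 5 lower with a median of -0.22. Examples are the cytokine Mif at -0.43 ± 0.28, Xcl1 at -0.63 ± 0.56, the platelet chemokine Pf4 at 0.51 ± 0.46 and the interferon-induced Cxcl10 at -0.57 ± 0.62. Of the other chemokine receptors, 8 of 21 were on the array and 6 were tested, 3 higher and 3 lower with a median of 0.07. Ackr3, another receptor of Cxcl12, differed by 0.30 ± 0.37, and Ccr1, a receptor of Ccl3 and Ccl5, by 0.19 ± 0.63. The Ccl2 receptor Ccr2 was dim, with 5 of 11 arrays below the floor. Of the leukocyte adhesion molecules 8 were tested, 3 higher and 5 lower with a median of -0.12, among them Icam1 at 0.76 ± 0.53 and Pecam1 at -0.92 ± 0.68. Of the cytokines and NF-kB genes 12 were tested, 7 higher and 5 lower with a median of 0.15, among them Il6r at 1.14 ± 0.66 and the NF-kB inhibitor Nfkbia at -0.53 ± 0.39. In these 4 lists too, 0 genes were called by limma after adjustment and 0 had an unadjusted p under 0.05.

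Old replicate 3, which held the extreme Lyz2 and Ccl2 values, was also highest in some other inflammatory genes and lowest in others, picked here after their values were seen. Il6 read 1285 there and at most 119 on the other 10 arrays. The interferon-response factor Irf1 read 2567 against at most 842, the haem oxygenase Hmox1 2217 against 1080.1 and the adhesion molecule Icam1 2910 against 1624. The neutrophil chemokine Cxcl2 read 388 against 97.5. On the same array the monocyte receptor Cd14 read 254 against at least 384 on the others, Pecam1 65.1 against at least 75.5 and the cytokine Ifng 76.9 against at least 85.5. It gave the highest value for 6 of the 22 myeloid genes on the array, 5 of the 19 cytokine and NF-kB genes, 2 of the 11 other chemokines, 1 of the 8 receptors, 2 of the 11 adhesion molecules and 1 of the 17 lymphocyte markers, against 11.7% of all 8740 probe sets without controls. The same held for 4 of the 11 mast cell markers and 1 of the 7 granulocyte markers. Outside the immune lists it did so for 3 of the 10 fibroblast markers. It gave the lowest value for 1 of the 22, 1 of the 19, 1 of the 11 chemokines, 0 of the 8, 3 of the 11 adhesion molecules and 3 of the 17, against 12.9% of the 8740. For the mast cell and granulocyte markers this count was 0 in each list. This array had bright spike-ins and a GAPDH ratio of 3.39, whose part in these values was not tested. Old replicate 6, in which Ccl3 and Ccl4 were highest, was highest in 24.5% of the 8740, and among the other chemokines in 3 of 11, Cxcl3, Cxcl6 and Ccl11.

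**Figure D5:**
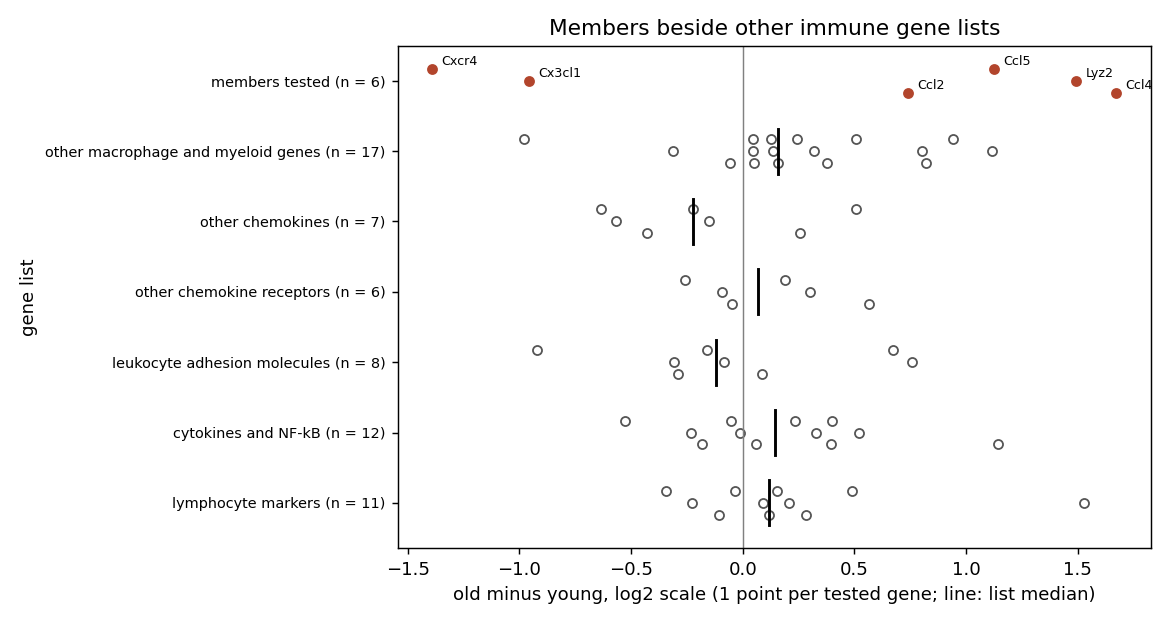
Old minus young difference on the log2 scale (horizontal axis), 1 point per tested gene, for the members and the other immune gene lists, with a line at each list's median. Every list plotted has genes on both sides of 0; of the 17 myeloid genes 14 lie to the right, with a median of 0.16.

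Markers of other cells gave the following background. The ventricular cardiomyocyte markers were bright, with a summed intensity of 413490.2 to 652946 in old and 377407 to 602178 in young ventricle, and 5 of 10 were higher and 5 lower. All 4 tested endothelial markers, cells that carry Cx3cl1 and Cxcr4, were lower in old ventricle with a median of -0.36, and 0 had an unadjusted p under 0.05; the summed intensity of the 5 on the array was 692 to 1952 in old and 1253 to 2111 in young ventricle and was lowest in old replicate 3. The granulocyte markers, cells that also make lysozyme, had 1 tested gene of 7, and their sum was 745 to 1422 in old and 328 to 884 in young ventricle. The lymphocyte markers, cells that make Ccl4 and Ccl5, had 11 tested, 7 higher and 4 lower with a median of 0.12 and a sum of 3704 to 6038 against 3061 to 5795. Of them the T cell receptor chain Cd247 had the smallest limma unadjusted p, 0.0106, at 1.53 ± 0.54. The red cell markers, which follow the blood left in the tissue, were all 3 higher, with a median of 1.29 and a sum of 18388 to 228869 in old and 1837 to 111959 in young ventricle. The 3 tested mast cell markers and the 3 atrial markers were also all higher, with medians of 0.26 and 0.95; of the atrial ones Nppa had a limma unadjusted p of 0.0267, at 1.18 ± 0.49. Of the 10 fibroblast markers 6 were higher and 4 lower with a median of 0.39; Lum, a matrix proteoglycan, was at 1.19 ± 0.37 (limma unadjusted p = 0.0043) and Sparc, a matrix glycoprotein, at -1.18 ± 0.43 (unadjusted p = 0.0124). The 6 adipocyte markers had 3 higher and 3 lower with a median of 0.21. No gene of any list passed adjustment, and in none of these lists was a gene at the floor on all 11 arrays. The part of these cells in the differences of the chemokines and of Lyz2 was not tested.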

How the data were processed

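The deposited values are linear intensity, 1 per probe set and array, for 11 arrays of total RNA, grouped by the titles into 6 old and 5 young. How the authors computed the intensity from the scans (software, background correction) is not given in the sources used here; trimmed means show a scaling per array, so changes are relative to the other transcripts. Gene names came from GEO's platform annotation, which can be old. Values were floored at the 20th percentile, 47.4, and put on the log2 scale; the 59 controls and probe sets whose mean was under the 40th percentile were left out. Old and young were compared in limma 3.58.1 (R 4.3.3; lmFit, eBayes with trend) with Benjamini-Hochberg adjustment over 5244 probe sets, or over 8740 for dim ones; the fit was checked on simulated data. Fold changes are 2 to the power of the log2 difference. Correlations and their two-sided permutation p-values were computed in numpy 2.4.6, with ranks from scipy 1.17.1. Over the 11 arrays 100000 resamples were drawn, and within the dim arrays every permutation was used. The number of arrays limits the precision: the median standard error was 0.56. The genes named were the 9 members, for each tested member the 3 genes most like it, and up to 4 genes of smallest p per list; other names were picked after seeing values. Members and lists were chosen with earlier results of these data known. Alternatives covered the floor, filter, scaling, trend, array weights, threshold, spike-in brightness, RNA quality, probe set summary, replicate numbers and leaving out arrays.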

Additional observations from a re-analysis of the deposited data

Results flagged for a closer look

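Within the 26 groups of values (13 probe sets in old and in young ventricle), 3 had an array whose gap to its nearest neighbour took up more of the group's range than expected at the 95% level of Dixon's test; chance flags about 1 in 20 groups. For Ccl2, old replicate 3 stood apart in both probe sets, at a log2 intensity of 12.55 with the next old array at 9.48 in X17053mRNA_s_at, and at 11.25 with the next at 9.18 in X17053cds_s_at. For Ccl3, young replicate 3 read 5.84 while the other 4 young arrays were at the floor of 5.57, so this gap is set by the floor.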

How the results depend on the processing

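Over the 13 probe sets and all alternatives, 324 of 334 differences kept their direction, 10 reversed and 0 passed the threshold in limma. A change of filter, trend or threshold leaves the difference itself as it is. The agreement under those settings was fixed in advance, so the count of 324 overstates how stable the directions are. The cause of the changes was not tested. Ccl2 X17053cds_s_at reversed with the brightness class as a block (-0.090), without the arrays of GAPDH ratio over 3 (-0.29), without old replicate 3 (-0.14, the lowest of a range up to 0.50 when each array was left out) and, in a split added after seeing the data, within the dim arrays (-0.14). Within the bright arrays, with 1 young array assumed to vary like the old ones, Ccl2 X17053mRNA_s_at read -0.15, Ccl5 -1.62, Cx3cr1 0.47 and Cxcr4 rc_AA945737_at -0.71; the last ranged from -0.059, without old replicate 3, to 0.57 when each array was left out, and Cxcr4 U90610_g_at read 0.017 within the dim arrays. The correlation of Lyz2 with Cxcr4 was 0.010 without the arrays of high GAPDH ratio. Over all tested probe sets the number called, 0, became 1 within the dim arrays and 5 within the bright arrays, and lay between 0 and 2 when each array was left out in turn, 2 without old replicate 5. Of the 15 pairs, 1 was called with the floor at the 30th percentile, 1 with each array centred on its median, and 0 to 1 when each array was left out in turn; without old replicate 5 and without young replicate 3 it was Cx3cl1 with Cxcr4 (r 0.85 and 0.83), and without old replicate 6 it was Lyz2 with Cx3cl1 (r -0.88). Centring on the median moved the median difference over all probe sets to -0.29, quantile normalization to -0.12, and no filter to 0.11. Same-numbered old and young arrays correlated at -0.25 to 0.25 in their deviations. These few values cannot show whether the numbers pair the samples, and the titles give only the number. With the replicate block 0 probe sets were called, and Lyz2 differed by 1.72, Ccl4 by 1.30, Cxcr4 U90610_g_at by -1.23 and Cx3cl1 AF030358_at by -0.70.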
